A study of Drosophila melanogaster with 2 samples.

Results

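The genes described are the 3 ventral signal genes Tl, cact and dl, which act upstream of Twist, and 4 other receptors of the Toll family, 18w, Toll-6, Toll-7 and Tollo. These 7 genes, of 13968 annotated protein-coding genes, were given as a list of names, and the rule uses no threshold on a measured value. The experiment precipitated chromatin with an antibody against GFP from Drosophila melanogaster embryos aged 2 to 12 h that carry a transgene for Twist with GFP at its C-terminus, and sequenced it. It has 1 group with 2 biological replicates, both from the same transgenic line, of pooled male and female embryos. Whole embryos were used, so each value mixes all tissues, and embryos without the transgene were not analysed here. A summit is the highest point of a peak, and it was counted for a gene when it lay in the annotated gene body or within 10 kb of it. The main list is the one of 6516 peaks that the authors kept by the irreproducible discovery rate (IDR). It was set beside lists of 30000 peaks each for both replicates together (pooled), replicate 1 and replicate 2. The IDR list is the same as the 6516 highest-signal peaks of the pooled list. Signal ranks count from 1, the strongest peak of a list.

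The Toll pathway sets the back-to-belly axis of the fly embryo. On the belly side the ligand Spätzle activates the receptor Toll, encoded by Tl. The signal leads to the breakdown of Cactus, an inhibitor of the IκB type encoded by cact, which frees the Rel factor Dorsal, encoded by dl, to enter the nuclei. Dorsal switches on twi, whose product Twist binds E-boxes, sites of the form CANNTG, and works with Dorsal on the genes of the mesoderm. The other receptors have different roles: 18w (Toll-2), Toll-6 and Tollo (Toll-8) are known for striped expression that orients cell rearrangement in the germband, and Toll-6 and Toll-7 for neurotrophin-like signalling in the nervous system.

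Tl and cact, of the 3 ventral signal genes, and all 4 other receptors held several Twist-GFP summits each, and dl held 1, past its 3' end and inside the next gene. All 7 genes held at least 1 IDR summit by the rule, a level that 63.7% of all protein-coding genes reached. At least 3 summits lay at 6 of the 7, all but dl, against 24.6% of all genes, and at least 5 lay at 4 of them, cact, Tl, 18w and Toll-7, against 7.75%. The median was 5 IDR summits per gene for the 7 and 1 for all protein-coding genes. The windows of the 7 are longer, with a median of 27.6 kb against 22.2 kb. Per 10 kb of window the medians were 1.10 and 0.456 summits. In the pooled list, all 7 genes held a summit, as did 79.2% of all genes. Peak lists hold no read counts, so the depth behind these counts is unknown.

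**Figure D1:**
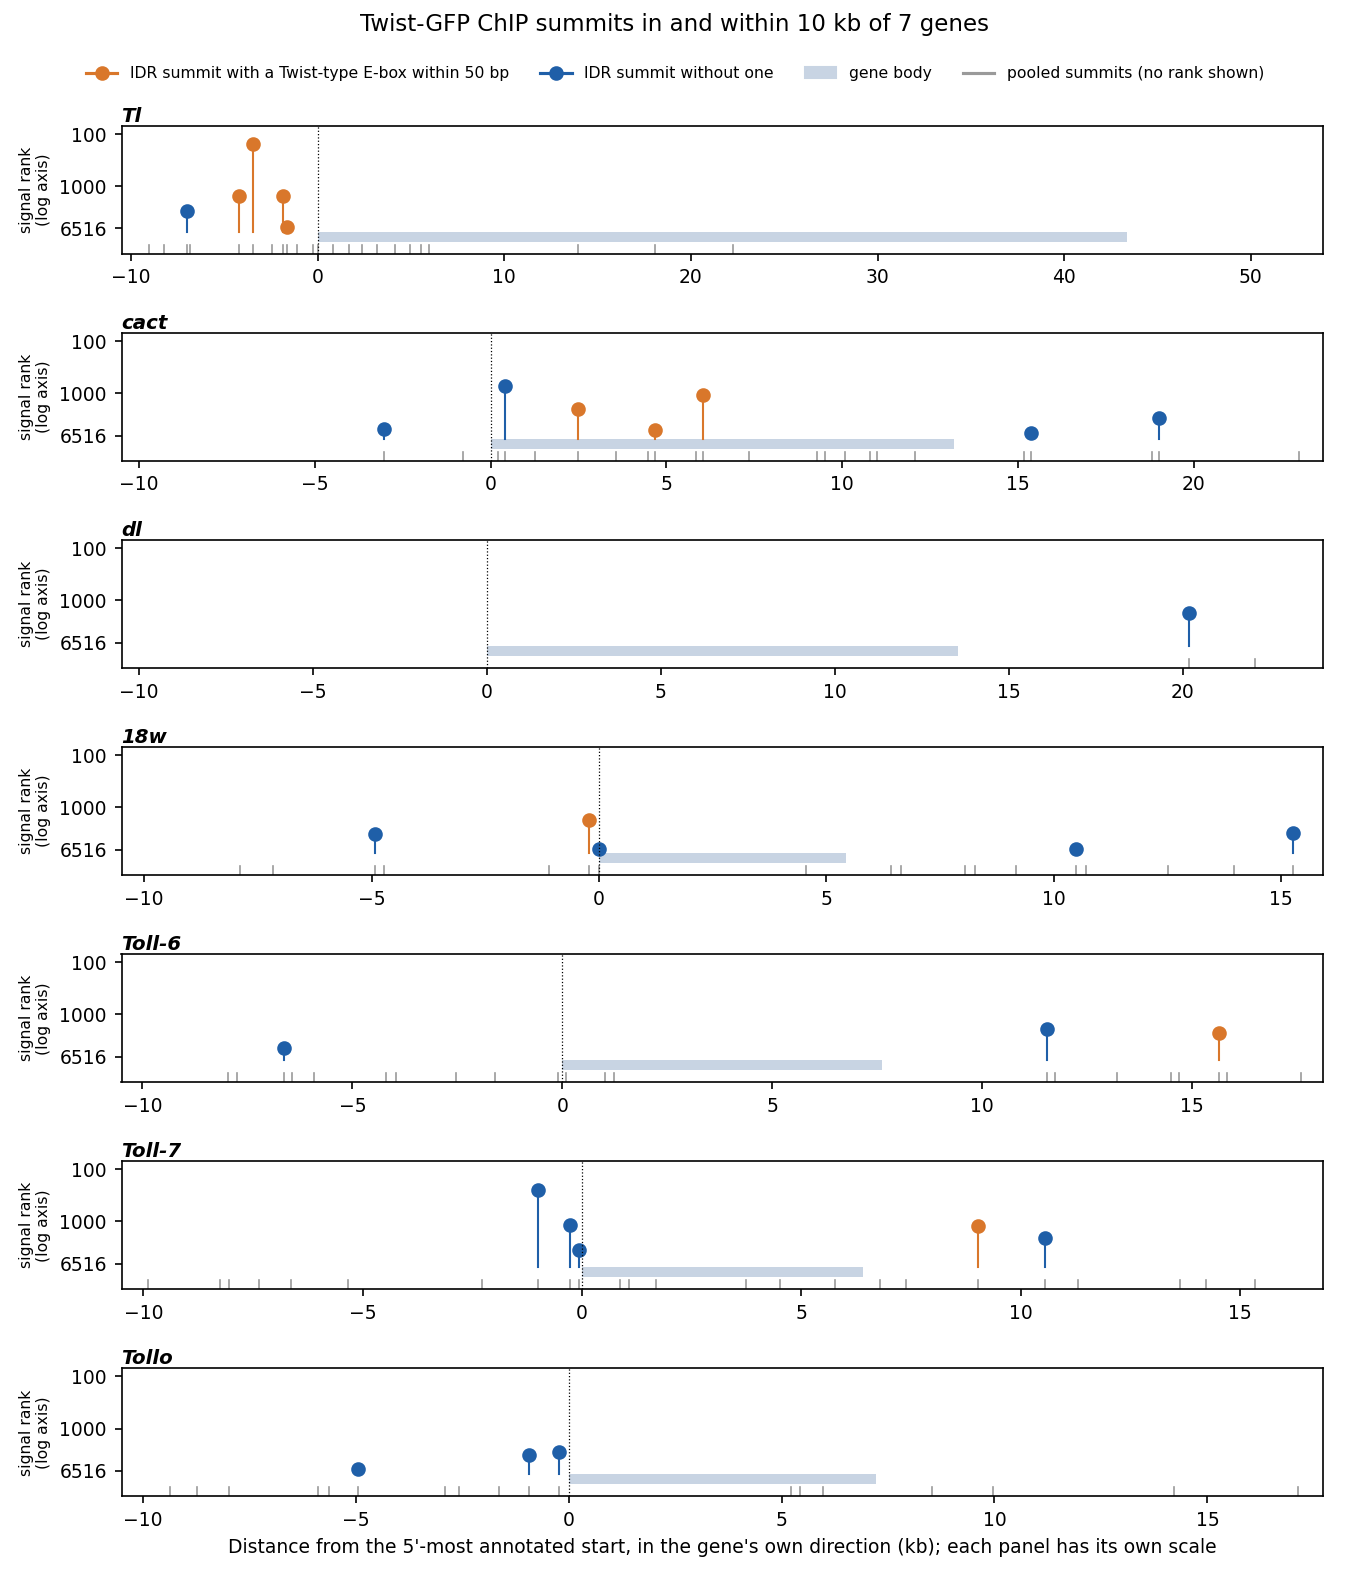
Summits along the 7 genes, by distance in kb from the 5'-most annotated start in the direction of transcription. Points are IDR summits, placed by their signal rank on a log axis (orange with CACATG or CATATG within 50 bp, blue without), pale bars are gene bodies and grey ticks are pooled summits. The 5 summits of Tl all lie upstream, 4 of the 7 of cact lie in its body, and the only one of dl lies past its 3' end.

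Tl, the receptor of the ventral signal, carried the strongest site of the 7 genes. Tl (FBgn0262473) spans chr3R:26799041-26842403 (dm6, plus strand) with a single annotated start. All 5 of its IDR summits lay upstream of that start, between 1647 and 7012 bp away, in intergenic sequence with no nearer gene start. The strongest, at 3475 bp, had rank 153 in the IDR list, rank 182 in replicate 1 and rank 145 in replicate 2. The summit at 4203 bp had rank 1531 and that at 1848 bp rank 1572. The summit at 7012 bp had rank 3070. The weakest had rank 6106, at 1647 bp, and its interval overlapped that of the one at 1848 bp. The peaks matching all 5 were placed higher in replicate 2 than in replicate 1. No IDR summit lay in the 43363 bp of the gene body, although 12 of the 23 pooled summits did. The strongest of those, at the promoter, had rank 9085 and the farthest lay 22.3 kb from the start.

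The sequence around these upstream summits is shown because 4 of the 5 held the E-box CACATG or CATATG within 50 bp, with 8 matches in all. Each line gives the plus strand from 50 bp before to 50 bp after the summit (dm6, read from the RefSeq Release 6 sequence), 5′ to 3′. Capitals mark CACATG, read on either strand (CATGTG on the other), or CATATG. CACATGTG holds CACATG on both strands and counts as 2 matches.
Tl, rank 153, chr3R:26795516-26795616: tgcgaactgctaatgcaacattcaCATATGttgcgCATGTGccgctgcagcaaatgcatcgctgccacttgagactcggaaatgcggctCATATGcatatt
Tl, rank 1531, chr3R:26794788-26794888: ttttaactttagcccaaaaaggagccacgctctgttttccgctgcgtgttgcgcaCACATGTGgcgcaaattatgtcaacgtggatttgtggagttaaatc
Tl, rank 1572, chr3R:26797143-26797243: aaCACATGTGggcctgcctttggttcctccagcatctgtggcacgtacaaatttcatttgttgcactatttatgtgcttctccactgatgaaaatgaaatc
Tl, rank 6106, chr3R:26797344-26797444: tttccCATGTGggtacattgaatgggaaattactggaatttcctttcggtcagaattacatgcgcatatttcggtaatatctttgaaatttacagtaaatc

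The strongest site had 3 such matches, the nearest centred 12.5 bp from the summit, and 5 E-boxes of any type. The sites at ranks 1531 and 1572 both held the palindrome CACATGTG. At rank 1531 it was centred close to the summit, with a match 7.5 bp away. At rank 1572 the nearest match lay 43.5 bp from it.

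cact, the inhibitor that holds Dorsal in the cytoplasm, was the only one of the 7 genes with IDR summits in its body, which 13.2% of all protein-coding genes had. It (FBgn0000250) lies at chr2L:16313036-16326207 (minus strand), with 4 annotated starts. Its body held 4 IDR summits. The strongest lay at the promoter, 166 bp from the nearest start, with rank 725, rank 625 in replicate 1 and rank 901 in replicate 2. The other 3 were in introns. That at 5249 bp from the nearest start had rank 1066, with 1053 in replicate 1 and 1182 in replicate 2. That at 1684 bp had rank 2032, with 2370 in replicate 1 and 1701 in replicate 2. That at 3892 bp had rank 4999, with 5212 in replicate 1 and 5420 in replicate 2.

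The sequences of all 4 are given because the 3 intronic summits held CACATG or CATATG and the promoter summit, the strongest, held no E-box of any type. Capitals have the same meaning as for Tl.
cact promoter, rank 725, chr2L:16325741-16325841: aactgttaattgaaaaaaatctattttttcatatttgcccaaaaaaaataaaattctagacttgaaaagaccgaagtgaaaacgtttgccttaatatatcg
cact intron, rank 1066, chr2L:16320121-16320221: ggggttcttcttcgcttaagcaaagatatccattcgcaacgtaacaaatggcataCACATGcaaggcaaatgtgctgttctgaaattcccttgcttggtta
cact intron, rank 2032, chr2L:16323686-16323786: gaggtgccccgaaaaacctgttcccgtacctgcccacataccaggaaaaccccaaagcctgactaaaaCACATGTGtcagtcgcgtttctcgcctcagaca
cact intron, rank 4999, chr2L:16321478-16321578: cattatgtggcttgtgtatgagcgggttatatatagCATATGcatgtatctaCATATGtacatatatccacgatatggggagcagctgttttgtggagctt

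The intronic summit at rank 2032 held CACATGTG, as at Tl, and a match to CAGGTA, the core of the motif of the early activator Zelda. The summit at rank 4999 held CATATG at 2 places, the nearer centred 4.5 bp from the summit. The other 3 IDR summits counted for cact lay at promoters of its neighbours: 89 bp from the start of CG5861 (rank 3030), 97 bp from that of mRpL4, which encodes a mitochondrial ribosomal protein (rank 4902), and 106 bp from that of cni (rank 5712). None of these 3 held CACATG or CATATG. In all, 8 other genes have a start in the window of cact, all protein-coding.

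dl, which encodes the Rel factor Dorsal itself, held no summit of any of the 4 lists in its body (FBgn0260632, chr2L:17436830-17450364, minus strand, 3 annotated starts). Its window held 1 IDR summit and 2 pooled summits. There were 3 summits of replicate 1 and 2 of replicate 2. The IDR summit lay past the 3' end of dl, 15379 bp from its nearest start and inside Dif, the neighbouring gene, which encodes another Rel factor, of the immune response. It was 482 bp from the start of the non-coding RNA gene lncRNA:CR44409 and 1989 bp from a start of Dif. Its rank was 1793, with 1370 in replicate 1 and 3394 in replicate 2. On the 5' side of dl the nearest IDR summit was 16.1 kb from the body. Starts of 8 other genes lie in the window of dl, 6 of them protein-coding. The sequence at the summit is shown for contrast with Tl and cact: it held neither CACATG nor CATATG, and capitals mark its only E-box.
Dif and lncRNA:CR44409, in the window of dl, rank 1793, chr2L:17430138-17430238: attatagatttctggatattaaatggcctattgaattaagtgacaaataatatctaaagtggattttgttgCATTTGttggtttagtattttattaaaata

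**Figure D2:**
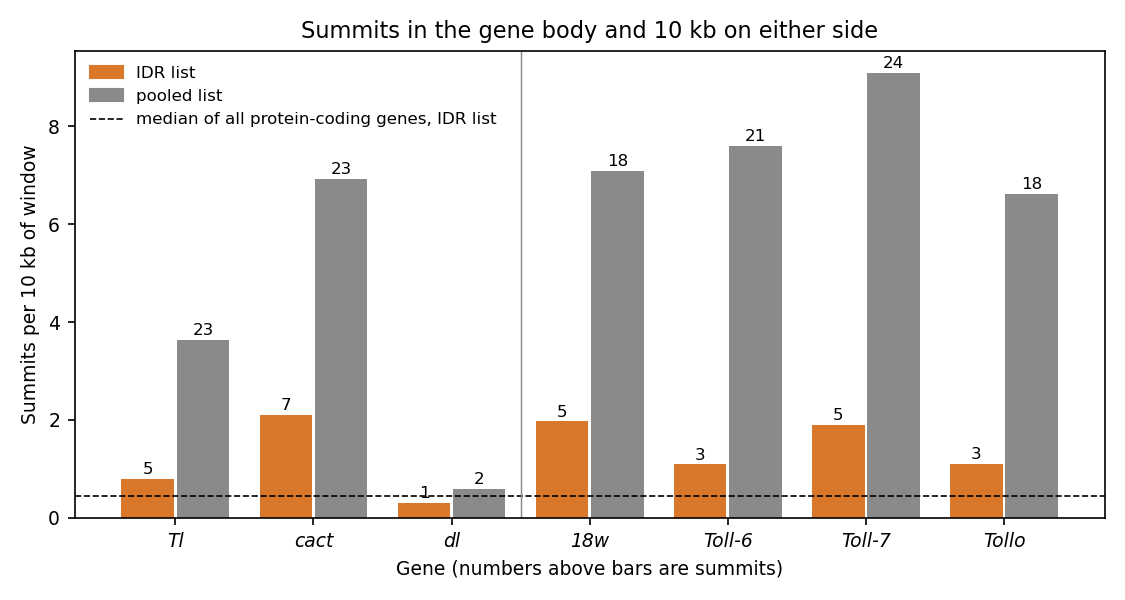
Summits per 10 kb of window (y axis) for each gene, in the IDR list (orange) and the pooled list (grey), with the number of summits above each bar. The dashed line is the median over all protein-coding genes for the IDR list, 0.456. In the IDR list dl lies below it at 0.298, and the others lie above it.

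The 4 other receptors together held 16 IDR summits, none in a gene body. Most genes have none there either: 13.2% of all protein-coding genes had an IDR summit in the body. The bodies of these receptors are short, 5422 to 7624 bp. Of the other receptors, Toll-6 and Tollo lie on the same chromosome arm. Toll-6 (FBgn0036494, chr3L:15336692-15344315, plus strand) had 3 IDR summits, all intergenic and none near its start. The strongest lay 11546 bp downstream of the start, with rank 1914, rank 1788 in replicate 1 and rank 2309 in replicate 2. The next, 15638 bp downstream, had rank 2271, with 2587 in replicate 1 and 1939 in replicate 2. The other lay 6640 bp upstream, with rank 4388, rank 5461 in replicate 1 and rank 3811 in replicate 2, and was nearer, at 2194 bp, to the start of lncRNA:CR43247. Tollo (FBgn0029114, chr3L:15235619-15242832, plus strand) had 3 IDR summits, all upstream. The promoter summit, 238 bp from the start, had rank 2781, with 3184 in replicate 1 and 2303 in replicate 2. The others lay at 935 bp (rank 3186) and 4953 bp (rank 5861). Tollo had the weakest best rank of the 7 genes.

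Further peaks lay between these genes and their distant neighbours. By the nearest protein-coding start at any distance, a rule chosen after the data were seen, Toll-6 had 8 IDR summits, 5 of them outside the 10 kb window. The strongest of these had rank 230, with 268 in replicate 1 and 205 in replicate 2, in a peak 15.4 kb upstream (chr3L:15320434-15321711). Of the sites within 10 kb of the 7 genes, only the strongest of Tl had a higher rank. This peak was 1403 bp from the start of lncRNA:CR46213, nearer than to Toll-6. A second, 14.3 kb upstream, had rank 970, with 1333 in replicate 1 and 669 in replicate 2, and held CACATG. Tollo had 6 by this rule, 3 outside its window and up to 26.7 kb from its start.

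The sequences at 4 sites of Toll-6 and Tollo are shown to set the strongest of each window, and the strong peak outside that of Toll-6, beside those of Tl and cact. At rank 1914 capitals mark 3 matches to the Mef2 motif, at ranks 2271 and 230 CACATG or CATATG, and at rank 2781 TACCTG, which is CAGGTA on the other strand.
Toll-6, downstream, rank 1914, chr3L:15348188-15348288: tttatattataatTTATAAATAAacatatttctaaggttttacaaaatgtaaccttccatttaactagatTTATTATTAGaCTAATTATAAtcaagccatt
Toll-6, downstream, rank 2271, chr3L:15352280-15352380: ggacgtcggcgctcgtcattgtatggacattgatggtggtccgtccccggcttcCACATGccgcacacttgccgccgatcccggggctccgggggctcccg
Toll-6, far upstream, outside the window, rank 230, chr3L:15321276-15321376: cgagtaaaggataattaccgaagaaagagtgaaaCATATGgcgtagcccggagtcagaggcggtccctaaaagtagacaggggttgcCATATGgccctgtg
Tollo promoter, rank 2781, chr3L:15235331-15235431: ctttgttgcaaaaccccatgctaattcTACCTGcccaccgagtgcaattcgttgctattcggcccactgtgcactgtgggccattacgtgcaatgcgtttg

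The strongest summit in the Toll-6 window and all 3 of Tollo held neither CACATG nor CATATG. The Toll-6 summit at rank 2271 had CACATG centred 6.5 bp away. The Mef2 motif, that of a muscle transcription factor, was present at 5.39% of all IDR summits within the same distance of the summit. CAGGTA was present at 2.42% of them, and at 2 of the 29 summits of the 7 genes.

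Toll-7 carried the second strongest site of the 7 windows, and 18w as many summits. Toll-7 (FBgn0034476, 2R, 19826578 to 19832973, plus strand) had 5 IDR summits. The strongest, 1011 bp upstream of its start, had rank 254, with 397 in replicate 1 and 158 in replicate 2. It held CAGCTG at 2 places, an E-box type found at 7.03% of all IDR summits, and neither CACATG nor CATATG. The promoter had 2 summits in 1 interval, at 275 bp (rank 1156, with 1004 in replicate 1 and 1489 in replicate 2) and at 68 bp (rank 3561). Downstream, the summit at 9034 bp had rank 1221, with 1250 in replicate 1 and 1220 in replicate 2. It held 3 matches to CACATG, the nearest centred 2.5 bp from it, and CG44569 had the nearer start, at 8056 bp. The remaining summit lay at 10568 bp (rank 2088), again nearer to the start of CG44569, at 6522 bp. 18w (FBgn0287775, 2R, 20111511 to 20116932, plus strand) also had 5. The strongest lay at the promoter, 211 bp from the start, with rank 1791, rank 2246 in replicate 1 and rank 1465 in replicate 2, and held CACATG. The other 4 held neither CACATG nor CATATG. They lay 8 bp upstream (rank 6415), 4936 bp upstream (rank 3234), and 10480 and 15263 bp downstream (ranks 6249 and 3061). The one at 15263 bp was nearer, at 10388 bp, to the start of lncRNA:CR44634. A summit within 500 bp of an own start was found at 4 of the 7 genes, cact, 18w, Toll-7 and Tollo, and at 20.9% of all protein-coding genes.

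Set against each other, the ventral signal genes did not hold more summits per 10 kb of window than the other receptors. Per gene the median was 5 IDR summits at the ventral signal genes and 4 at the other receptors. Their median windows were 33.5 kb and 26.8 kb, and that of Tl alone was 63.4 kb. Together Tl, cact and dl held 13 IDR summits in 130 kb, 0.999 per 10 kb (95% exact Poisson interval 0.532 to 1.71), and the 4 other receptors 16 in 107 kb, 1.5 per 10 kb (0.857 to 2.44). Both intervals cover counting error only, and they overlap. Summits of 1 locus are not independent and genes are not replicates, so the difference was not tested. The median signal rank of the summits was 2032 at the ventral signal genes and 2921 at the other receptors. By gene the order of summits per 10 kb was cact with 2.11, 18w with 1.97, Toll-7 with 1.89, Tollo with 1.10, Toll-6 with 1.09, Tl with 0.789 and dl with 0.298. As many summits per kb or more were found at 4.42% of all protein-coding genes for cact, 4.88% for 18w, 6.04% for Toll-7, 20.7% for Tollo, 20.9% for Toll-6, 36.1% for Tl and 61.3% for dl. The highest and the lowest value were thus both at ventral signal genes. Of the pooled summits, 13 of 48 at the ventral signal genes were in the IDR list, 27.1% (95% Wilson interval 16.6 to 41.0%), and 16 of 81 at the other receptors, 19.8% (12.5 to 29.7%). Over all pooled peaks it was 21.7%. The IDR list is the strongest part of the pooled list, so these shares describe signal rank. The pooled list held 3.69 summits per 10 kb at the ventral signal genes and 7.59 at the other receptors. The windows differ in their surroundings: cact and dl have many neighbours, while 18w, Toll-7 and Tollo have no start of another gene in their windows, Toll-6 2 and Tl 1, none of them protein-coding. The part of this in the counts was not tested. When summits had to have the gene's own start as the nearest protein-coding one, 9 of 13 remained at the ventral signal genes and 14 of 16 at the other receptors. By nearest start at any distance, 6 of the 7 genes, all but dl, had a summit, against 24.5% of all genes.

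**Figure D3:**
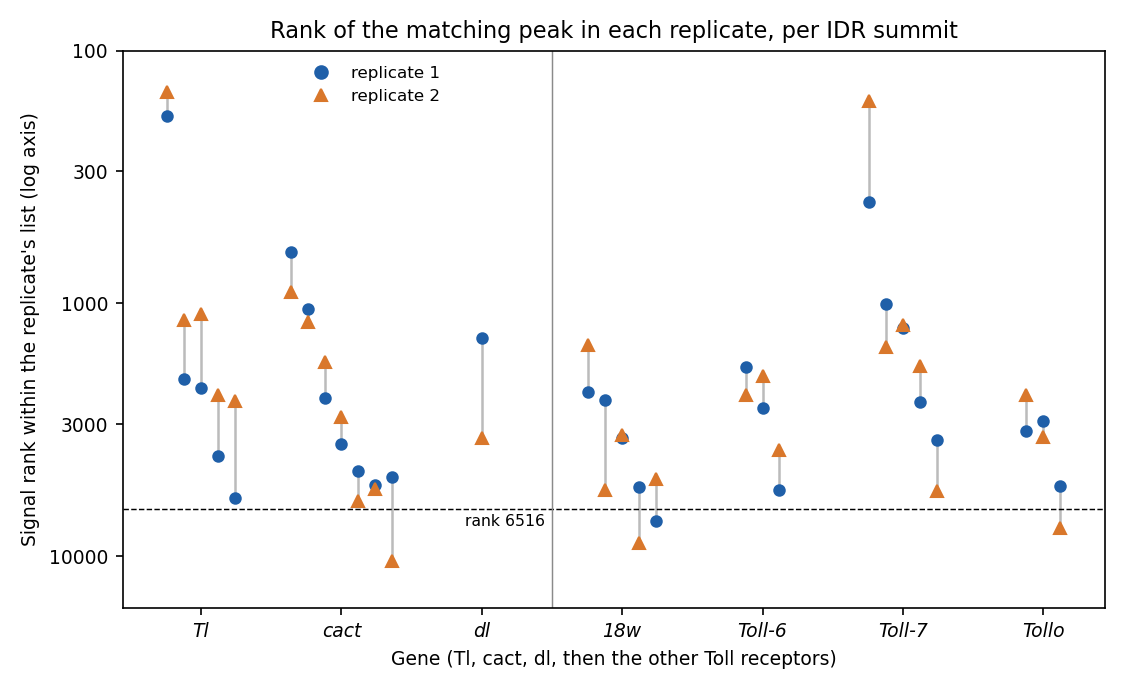
Signal rank, on a log axis, of the matching peak in replicate 1 (circles) and replicate 2 (triangles) for each IDR summit of each gene, joined by a line. The dashed line is rank 6516, and the strongest sites of Tl and Toll-7 stand highest in both replicates.

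Of the 29 IDR summits, 16 were intergenic, 10 at promoters and 3 in introns, while 18.4% of all IDR summits were intergenic, 39.5% at promoters and 38.2% in introns. Of the 16 intergenic ones, 11 lay at the other receptors and 5 at the ventral signal genes. The 29 come from windows of a gene body with 10 kb on either side, and all IDR summits from the whole genome. The part of the windows in this difference was not tested. All 29 IDR summits had a summit within 100 bp in replicate 1 and in replicate 2, as did 95.4% of all IDR peaks. The IDR list was made from these libraries, so this describes the list. The summits of the replicates lay a median of 22.0 bp apart and at most 92 bp. Among the 6516 strongest peaks of replicate 1 alone, 14 lay at the ventral signal genes and 16 at the other receptors. In replicate 2 they were 12 and 14. The ranks differed by over 2 times at 5 of the 29 summits, against 21.5% of all IDR peaks found in both. They were the weakest of Tl, the one at cni, the one at Dif, the 18w summit 15263 bp downstream and the strongest of Toll-7. Replicate 1 placed 13 of the 29 higher and replicate 2 placed 16.

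CACATG or CATATG was found at a larger share of the summits of Tl and cact than of the other receptors. Within 50 bp, 7 of 13 summits of the ventral signal genes held at least 1 of these E-boxes, 53.8% (95% Wilson interval 29.1 to 76.8%). At the other receptors it was 3 of 16, 18.8% (6.59 to 43.0%), and over all IDR peaks 28.2%. The intervals of the ventral signal genes and of the other receptors overlap, and the difference was not tested, since summits of 1 locus are not independent. The 6 ventral summits without either E-box were 1 upstream of Tl, the cact promoter, the 3 at neighbours of cact and the one at Dif. Over 500 bp from any annotated start, the 8 ventral summits all lay at Tl or cact, and none at dl. Of these, 7 of 8 held one, 87.5% (52.9 to 97.8%). At the other receptors 2 of 11 did, 18.2% (5.14 to 47.7%), beside 35.1% of all IDR peaks there. These intervals do not overlap, but they cover counting error only, and this difference was not tested either. The split by distance from a start was not among the planned results, and it sets aside 5 ventral summits that held neither E-box. Within 500 bp of a start it was 0 of 5, 1 of 5 and 17.7%. Counted by nearest protein-coding start at any distance, it was 7 of 9 for the ventral signal genes and 5 of 23 for the other receptors. Among pooled peaks outside the IDR list, 4 of 35 summits at the ventral signal genes held one, 5 of 65 at the other receptors and 14.7% of all such peaks.

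**Figure D4:**
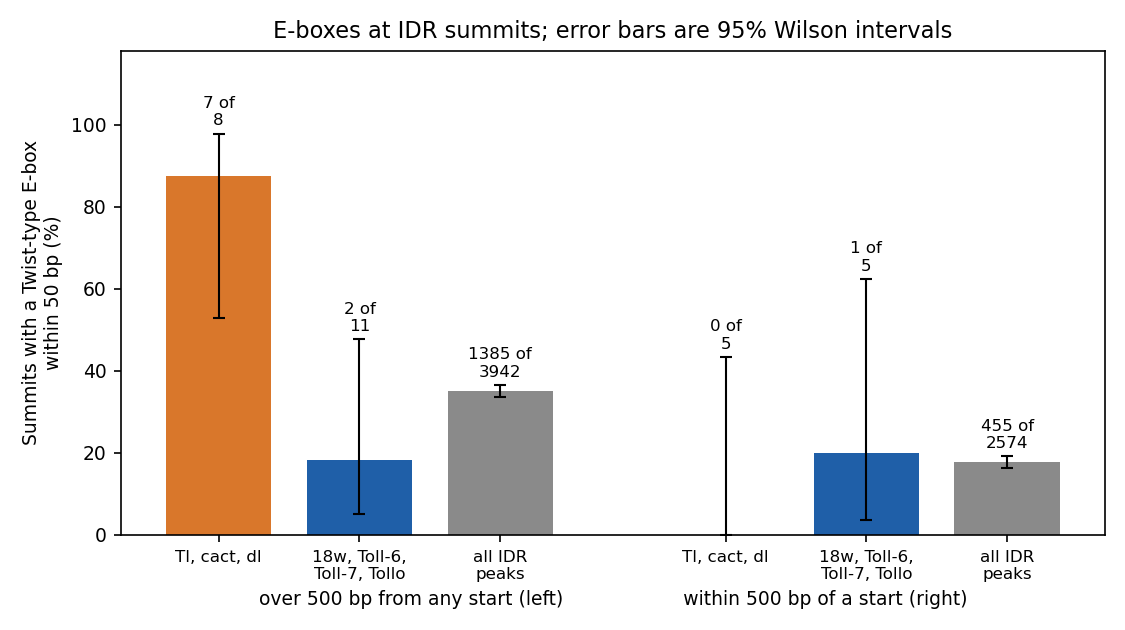
Percent of IDR summits with CACATG or CATATG within 50 bp, for summits over 500 bp from any start (left) and within 500 bp of one (right), at the ventral signal genes (orange), the other Toll receptors (blue) and over all IDR peaks (grey). Bars start at 0, error bars are 95% Wilson intervals and the counts stand above. Away from starts the values are 7 of 8 (all 8 at Tl or cact), 2 of 11 and 1385 of 3942. Without this split, which was not planned, they are 7 of 13, 3 of 16 and 1840 of 6516.

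The palindrome CACATGTG was at 3 of 13 ventral summits and 1 of 16 at the other receptors, beside 2.82% of all IDR peaks, and was searched after it had been seen at Tl. The Mef2 motif was at 2 of 13 ventral summits and 1 of 16 at the other receptors, 10.3% of the 29 together, beside 5.39% of all IDR peaks. The 2 ventral ones were the summit at the promoter of CG5861, a neighbour of cact, and the cact intron summit at rank 4999. The Tinman motif, that of a heart and visceral muscle factor, was at 2 of 13 ventral summits, the strongest of Tl and the one in the window of dl, and 0 of 16 at the other receptors, beside 5.10% of all IDR peaks. With so few summits these shares have wide intervals, 4.33 to 42.2% for 2 of 13. The Dorsal motif was at none of the 29 summits and at 0.568% of all IDR peaks. CAGGTG, which Snail-type repressors bind, was at none of the 29 and at 2.73% of all IDR peaks. GAGAG was at 0 of 13 ventral summits and 3 of 16 at the other receptors, beside 12.7% of all. An E-box of any type, CANNTG, was at 16 of the 29, 55.2%, close to the 57.2% of all IDR peaks. By group it was at 9 of 13 ventral summits, 69.2% (42.4 to 87.3%), and 7 of 16 at the other receptors, 43.8% (23.1 to 66.8%). A match is not a bound site, and no match says only that these letters are not in the window.

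The other genes of the pathway, 27 in a list by role, had a median of 1 IDR summit, as all protein-coding genes did. Of them 17 had an IDR summit, a share near the 63.7% of all protein-coding genes. In their windows, 8 of the 27 had one with their own start as the nearest protein-coding one. By nearest start at any distance, 24.5% of all protein-coding genes had one, and a difference was not tested. Those 8 were Myd88, tub, pll, Pli, Traf6, wntD, Dif and Rel. In the group of the relay inside the cell and regulators of the signal, Myd88, tub, pll, Pli, Traf6, Gprk2, cactin and wntD, 8 of 8 genes had an IDR summit in their window. Gprk2 and cactin had none nearest to their own start. The highest ranks there were 78 at Gprk2, which encodes a G protein-coupled receptor kinase, at 76 bp from the start of its neighbour PNPase, then 427 in an intron of Pli, which encodes Pellino, and 924 at the promoter of wntD, which encodes a secreted Wnt protein that limits Dorsal entry into nuclei. The Gprk2 site lay 581 bp from the nearest start of Gprk2 and had rank 48 in replicate 1 and 171 in replicate 2. Of the Rel factor genes, Rel had 10 IDR summits, with a best rank of 225, but 1 of the 10 was nearest to a start of Rel. Dif had 1, the one it shares with the window of dl.

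Of the 8 genes of the protease cascade and its ligand, 4 held an IDR summit, beside 63.7% of all protein-coding genes, and a difference between roles was not tested. They were snk (rank 388), wbl (521), pip (2190) and Spn27A (3547), and none of these summits was nearest to a start of its gene. The genes spz, which encodes Spätzle, ea, ndl and gd held none. Of the 5 other ligands of this type, spz5 (best rank 404) and spz4 (3379) held at least 1, again nearer to other genes, and NT1, spz3 and spz6 none. Of the other Toll receptors, Toll-9 had 1 (rank 1240), 129 bp from the start of Ide, and Toll-4, Tehao and MstProx had no summit in any of the 4 lists. The 4 genes for surface proteins studied with Toll receptors in the germband all held IDR summits, as 63.7% of all protein-coding genes did: Ten-m 10 (best rank 1023), Cirl 3 (578), trn 2 (1153) and caps 2 (3251). The best site of Ten-m was at the promoter of its neighbour IleRS, 186 bp from a start, although 9 of its 10 summits had Ten-m as the nearest protein-coding start. Ten-m spans chr3L:22293044-22407863, and its count was not divided by window length. The best site of Cirl was nearest to a start of CG8642, at 6248 bp, and 1 of its 3 summits had Cirl as the nearest protein-coding start. The best site of trn lay 6072 bp from its start with no nearer protein-coding start.

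**Figure D5:**
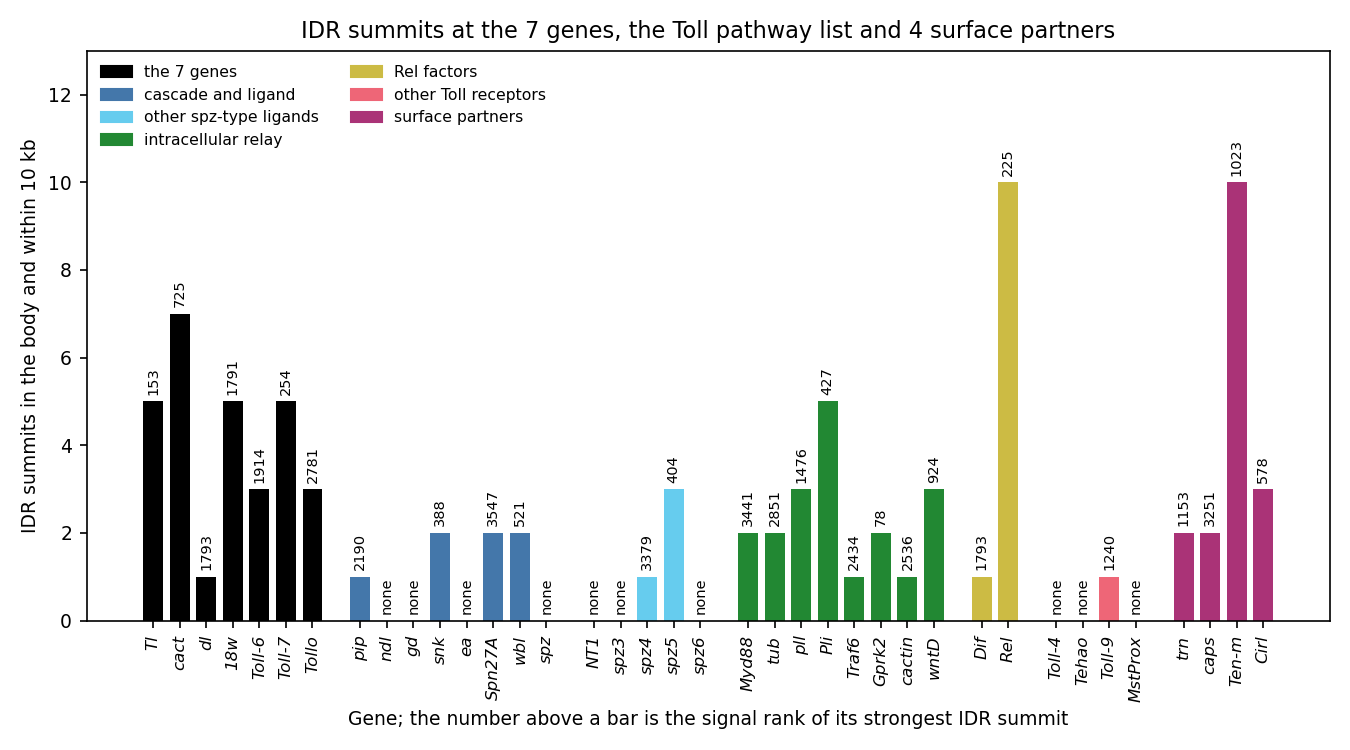
Number of IDR summits in the body and within 10 kb (bar height) for the 7 genes (black), the 27 other pathway genes by role and the 4 surface proteins (purple), with the rank of the strongest above each bar and "none" where there is no summit. Toll-4, Tehao and MstProx have none and Toll-9 has 1, against 3 to 5 at 18w, Toll-6, Toll-7 and Tollo. Of all protein-coding genes, 63.7% have at least 1.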

How the data were processed

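Anti-GFP chromatin immunoprecipitation with sequencing was done on 2 biological replicates of 1 group, numbered as in the labels. Peak lists (narrowPeak, dm6) were used as the authors deposited them. Per the text records the authors deposited beside them, each replicate's list derives from its alignment and a shared control file, the pooled list from both alignments and that control, and the IDR list from those lists. No aligner, peak caller or threshold is named there or in the labels. The signal score per peak, as the authors deposited it, has no stated scale and was used for ranks only. The −log10 q-value that the authors deposited was the same for every IDR peak and was not used. Depth is unknown.

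Summits were assigned to genes of the Ensembl annotation (release 115) without transposable elements, in the gene body or within 10 kb. Sequence was the RefSeq copy of the Release 6 assembly, and all peak ends lay within its chromosomes. Summits were matched between lists within 100 bp, and motifs sought on both strands within 50 bp. A summit within 500 bp of any annotated start was called a promoter summit before exons and introns were considered. Wilson and exact Poisson intervals (95%) cover counting error only. Python 3.11.15, numpy 2.4.6, scipy 1.17.1 and matplotlib 3.10.9 were used, and the counting was tested on simulated data. All 7 genes and all their IDR summits are named, and of the pathway list the 3 genes with the strongest summit in each role and those without one. Spn27A, the rest of the relay and all 4 surface proteins are named beyond that rule. The genes and lists were chosen with earlier results of these data known. There was no group to compare with, so no p-values were computed.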

Additional observations from a re-analysis of the deposited data

How the results depend on the processing

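Of 54 alternative values, 45 stayed within 1.5 times the count or within the 95% interval of the value reported. With windows of 1 kb, 4 of the 7 genes held a summit, 10 summits in all, and the ventral signal genes had 0.526 per 10 kb. With windows of 20 kb there were 46 summits. With all pooled peaks there were 129, at 3.69 per 10 kb for the ventral signal genes and 7.59 for the other receptors. Matching within 50 bp, both replicates held 79.3% of the summits, and within the highest-signal part of each replicate 86.2%. Leaving out a replicate gave 7 genes each time, 26 to 30 summits, 0.923 to 1.08 per 10 kb for the ventral signal genes, 1.31 to 1.5 for the other receptors, and 33.3 to 38.5% with CACATG or CATATG. Alternatives chosen after the data were seen left out 1 gene at a time, or took the nearest protein-coding start at any distance: without cact the ventral signal genes had 0.619 per 10 kb, and without dl 1.24. In summits per 10 kb, the other receptors were above the ventral signal genes in each setting run on both. The share with CACATG or CATATG was higher at the ventral signal genes in each alternative run on both: within 25 bp it was 5 of 13 against 2 of 16, and within 100 bp 8 of 13 against 4 of 16. No paired analysis was possible because there is 1 group. Depth was not known, so a gene without a summit may have one below the lists' limits.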
